A study of Mus musculus with 11 samples.

Results

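Tight junctions seal the space between neighbouring epithelial cells. Claudins are membrane proteins that polymerise into strands at the top of the lateral membrane and set which ions and how much water pass between cells, and occludin and the immunoglobulin-type adhesion protein JAM-A lie in the same strands or beside them. On the inner side the scaffold proteins ZO-1 and cingulin tie the strands to the actin belt. In stratified epithelia such as skin and gingiva these seals form in the upper living layers, where they add to the barrier of the cornified surface.

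The 9 transcripts described here encode 5 claudins (Cldn1, Cldn3, Cldn4, Cldn7 and Cldn8), occludin (Ocln), JAM-A (F11r), ZO-1 (Tjp1) and cingulin (Cgn). They were chosen by name, and all 9 were among the 19170 genes that had values, out of 55414 genes listed. The study asked what the loss of Langerhans cells does to the gingiva, the gum around the teeth. The epithelium came from 8-week-old langerin-DTR mice, which carry a receptor for diphtheria toxin (DT) driven by langerin, so that DT kills langerin-expressing cells, including those outside the epithelium that make langerin. Both groups carried the receptor, and PBS went to 5 mice and DT to 6, with injections at 17, 24 and 31 days of age. The tissue was taken weeks after the last dose. From flow cytometry the study reports that Langerhans cells had gradually returned to their normal frequency in the gingiva by this age.

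Values are normalized counts, which are reads per gene divided by a factor for each mouse, and 17509328 to 24325513 reads per mouse stood behind them. Cd207, which encodes langerin, lay between 10.0 and 43.0 normalized counts after PBS and overlapped with the DT group. Markers of stratified keratinocytes (12 of 12 genes with values) summed to between 2156400 and 2410230 normalized counts in all mice, as in squamous epithelium, whereas the salivary gland markers summed to at most 110 and the endothelial markers to at most 147. The fibroblast markers summed to between 1120 and 1601, but nearly all of this was Dcn, with a mean of 1220. The next highest of them, Col1a1, had a mean of 56.3. On the first principal component (36.0% of the variance) PBS 3 and PBS 5 scored 17.2 and 20.9 and PBS 1, PBS 2 and PBS 4 scored between -13.0 and -11.9, with the DT mice between -9.09 and 10.5. Results for the members that rest on these mice are given with and without them. In RNA taken from many cells together, fewer cells of a type and less RNA per cell cannot be told apart.

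The regions just before the starts of 3 of these genes are shown because Cldn4 and Ocln had the smallest p among the members and Cldn1, also a claudin, had a lower mean after DT than after PBS. The letters come from the RefSeq promoter table (GRCm38.p6), read along the strand of the gene from the 5′ side towards the start, and stop before the first annotated exon. Capitals mark the AP-1 motif (TGANTCA, the same on both strands), the E-box bound by Snail-type repressors (CAGGTG or CACCTG) and the GC box (GGGCGG or CCGCCC), and no marked motif overlaps another.
Cldn4: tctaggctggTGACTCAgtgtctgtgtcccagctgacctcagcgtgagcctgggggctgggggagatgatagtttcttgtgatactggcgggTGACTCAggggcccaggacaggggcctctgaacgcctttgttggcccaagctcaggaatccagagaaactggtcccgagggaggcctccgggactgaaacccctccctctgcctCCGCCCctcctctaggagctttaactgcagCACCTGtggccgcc
Ocln: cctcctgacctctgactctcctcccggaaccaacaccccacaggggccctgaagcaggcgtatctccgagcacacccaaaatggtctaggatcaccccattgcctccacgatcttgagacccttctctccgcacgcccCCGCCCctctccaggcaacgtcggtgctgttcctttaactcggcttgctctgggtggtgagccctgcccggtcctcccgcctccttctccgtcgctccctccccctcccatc
Cldn1: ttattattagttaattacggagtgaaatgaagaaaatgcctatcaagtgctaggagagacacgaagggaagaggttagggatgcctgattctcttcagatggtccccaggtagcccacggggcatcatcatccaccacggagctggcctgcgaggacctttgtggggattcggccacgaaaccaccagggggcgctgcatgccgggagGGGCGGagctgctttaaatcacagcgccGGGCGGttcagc
The Cldn4 stretch (chr5:134946935-134947184, minus strand) held 2 copies of the AP-1 motif, 1 E-box and 1 GC box. The Ocln stretch (chr13:100552719-100552968, minus strand, the more upstream of 2 listed starts) held 1 GC box and neither of the others, and the Cldn1 stretch (chr16:26371842-26372089, minus strand) held 2 GC boxes only. Among all 32851 promoter windows of 250 bases in that table, 6.75% held the AP-1 motif, 17.2% the E-box and 32.7% the GC box. Of the 8 members with an entry in the table, Cldn4 and F11r held the AP-1 motif, and Cldn4, Cldn7, F11r and Ocln (at its other start) held the E-box, while all 8 held the GC box. The Grainyhead motif (AACNGGTT or AACCNGTT) stood in 1.79% of windows and, among the members, in Cgn only. These are matches of letters and say nothing of binding.

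Compared per kilobase of exon, so that genes of different length can be set side by side, Cldn4 was the most abundant member with a mean of 1351 normalized counts per kb over the 11 mice. F11r followed with 1222, Tjp1 with 456 and Cgn with 335 normalized counts per kb. Ocln had a mean of 204 and Cldn1 a mean of 178 normalized counts per kb, and Cldn8 had 81.5. Cldn7 and Cldn3 closed the order with 12.4 and 11.7 normalized counts per kb. Neighbours in this order were separated in all 11 mice except at 3 places. Cldn4 lay above F11r in 9 of 11 mice, Ocln above Cldn1 in 10 of 11, and Cldn7 above Cldn3 in 5 of 11, and in these pairs the ranges overlapped. With the longest transcript as the length the order was unchanged. Without division by length Tjp1 came first with a mean of 3564 normalized counts, then F11r with 3255 and Cldn4 with 2454. Division by length assumes that reads fall along the whole transcript. The study names a stranded mRNA library kit, but its read processing followed the QuantSeq guide, so whether this holds is not settled.

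**Figure D1:**
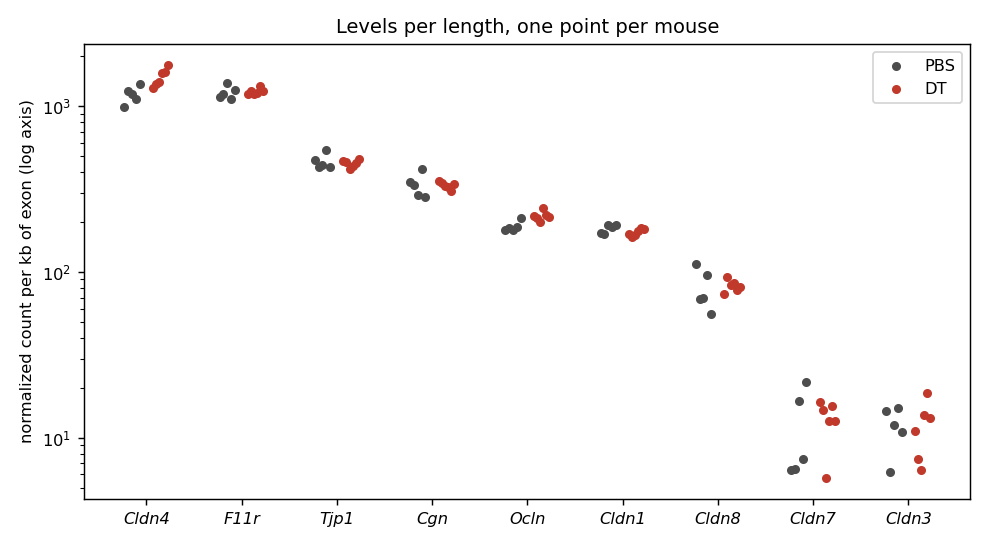
Level of the 9 members per kilobase of exon (normalized count per kb, log axis), with a point for each PBS mouse (grey) and each DT mouse (red). Cldn4 and F11r lie near 1000 and Cldn7 and Cldn3 near 10, and for each gene the DT points overlap the PBS points.

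Of the 9 members, 0 passed the threshold between DT and PBS (limma over 19170 genes, Benjamini-Hochberg adjusted p under 0.1). Over all genes 107 passed, or 0.558%, of which 0.313% were higher and 0.245% lower after DT. At an unadjusted p under 0.05 in limma 2 of 9 members, Cldn4 and Ocln, were higher after DT, against 5.31% of all genes in that direction, and 0 of 9 were lower, against 6.19%. Both directions together made 11.5% of all genes. Without PBS 3 and PBS 5, Cldn4 and Ocln passed the adjusted threshold, 2 of 9 members beside 10.3% of all genes. The groups did not overlap for 0 of 9 members and for 1.65% of all genes. The median log2 fold change of the 9 members was 0.03, beside -0.01 for all genes tested.

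Cldn4 encodes a sealing claudin that is abundant in the upper layers of stratified epithelia, and its gene is a single exon on chromosome 5 (134945119 to 134946934, minus strand, GRCm38). PBS mice 1 to 5 had 1792, 2238, 2141, 2013 and 2480 normalized counts, and the DT mice ran from 2327 through a median of 2707 to 3233. Every DT mouse lay above the PBS mean and 4 of 6 above the highest PBS mouse, which was PBS 5, while the 2 lowest DT mice fell within the PBS range. The means were 2133 ± 256 (SD, n = 5) and 2722 ± 341 (SD, n = 6), a log2 fold change of 0.35 ± 0.089 (SE) or 1.28-fold (95% confidence interval of the log2 fold change 0.16 to 0.54), with a limma adjusted p of 0.145. An exact permutation test over every way to split the mice 5 to 6, two-sided and without adjustment over the 9 members, gave p = 0.013, where the smallest p it can give is 0.00216. Counting error was 2.00% of the level and the spread between all mice 17.2%. The call was gained with array weights (limma adjusted p = 0.079), when PBS 5 was left out (limma adjusted p = 0.051), when PBS 3 and PBS 5 were both left out (limma adjusted p = 0.017) and when a trend of each mouse with transcript length was removed (limma adjusted p = 0.081). Without PBS 1 and PBS 4 the log2 fold change was 0.24 (limma adjusted p = 0.281). After the same depletion the study reports that a dye put on the gingiva reached deeper into the epithelium than after PBS. By RT-PCR of gingiva after that depletion, it reports that expression of Cldn1, Cldn4 and Tjp1 was not dysregulated. It also stained the proteins of Cldn4 and Tjp1 in sections and reports no effect. Both are measures unlike the one used here.

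The AP-1 motif of the Cldn4 stretch is the one that Fos and Jun proteins bind. Among the members F11r also held it, with a log2 fold change of 0.03, and Ocln did not, with 0.21. Of 14 immediate early transcripts, Fos, Jun, Junb and Atf3 among them, 10 passed the threshold and all 10 were higher after DT. Of all genes, 0.313% passed and were higher. Among the 14, 13 had a positive log2 fold change and Egr3 had -0.04. The summed level of the 14 was 27358 to 68089 normalized counts after PBS and 71978 to 114704 after DT, without overlap. The part of these transcripts in the level of Cldn4 was not tested.

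Ocln encodes occludin, a membrane protein with 4 passes through the membrane that lies along the claudin strands (chromosome 13, 100496507 to 100552718, minus strand). Its normalized counts in PBS mice 1 to 5 were 754, 776, 754, 790 and 891, and the DT mice ran from 840 through a median of 906 to 1032. Apart from PBS 5, every PBS mouse lay below every DT mouse, and PBS 5 lay above 2 of the 6 DT mice. The means were 793 ± 56.8 (SD, n = 5) and 918 ± 64.1 (SD, n = 6), a log2 fold change of 0.21 ± 0.062 (SE) or 1.16-fold (95% confidence interval 1.06 to 1.27), with a limma adjusted p of 0.209. The exact permutation test gave p = 0.013, again without adjustment. Without PBS 5 the log2 fold change was 0.25 (limma adjusted p = 0.068), and without PBS 3 and PBS 5 the limma adjusted p was 0.034. Without PBS 1 and PBS 4 the log2 fold change was 0.19 (limma adjusted p = 0.299). Ocln was called in 2 of 23 alternatives, both without PBS 5, and its limma adjusted p ran up to 0.608 in the others.

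Cldn1 encodes the claudin without which mouse epidermis loses water (chromosome 16, 26356642 to 26371841, minus strand). The 5 PBS mice, in order of number, had 827, 821, 934, 905 and 926 normalized counts, and the DT mice ran from 785 through a median of 839 to 894. The DT values lay inside or just under the PBS range, with 5 of 6 below the PBS mean and 2 of 6 below the lowest PBS mouse. The log2 fold change was -0.07 ± 0.056 (SE), or 0.954-fold with a 95% confidence interval from 0.879 to 1.04 (limma adjusted p = 0.684). It had the smallest spread of the 9 members, 5.84% over all mice, with a counting error of 3.39%.

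Since the DT means of Cldn4 and Ocln lay above the PBS means and that of Cldn1 below, their ratios within a mouse were set side by side, as a description chosen after their values were seen. Cldn4 over Cldn1 was 2.17 to 2.73 in PBS mice and 2.82 to 3.68 in DT mice, without overlap. Ocln over Cldn1 was 0.807 to 0.961 and 1.02 to 1.21, also without overlap. Choosing genes in this way favours a separation, and how often the ratios of other gene pairs separate was not counted. The ratios of Cldn4 and Ocln to Tjp1 overlapped between the groups.

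Cldn8, a claudin best known from the kidney collecting duct, had 261, 162, 165, 226 and 131 normalized counts in PBS mice 1 to 5 (chromosome 16, 88560828 to 88563183, minus strand). The DT mice lay between 173 and 219 with a median of 194, inside the PBS range, which was split between a high pair (PBS 1 and PBS 4) and 3 lower mice. The log2 fold change was 0.08 ± 0.14 (SE, limma adjusted p = 0.878). It came to 0.35 without PBS 1 and PBS 4 (limma adjusted p = 0.182) and to -0.13 without PBS 3 and PBS 5 (limma adjusted p = 0.587), so that its sign depended on which mice were kept.

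Cldn7, which binds the adhesion protein Epcam, was a rare transcript of 11 to 40 reads per mouse (chromosome 11, 69964779 to 69967885, plus strand). In PBS mice 1 to 5 it had 12.4, 12.6, 32.2, 14.6 and 42.0 normalized counts, and the DT mice ran from 11.1 through a median of 26.7 to 32.1. PBS 3 and PBS 5 were the 2 highest mice of all, the other PBS mice were low, and DT 3 was the lowest of all. The log2 fold change was 0.25 ± 0.34 (SE, limma adjusted p = 0.832), and it was 0.82 without PBS 3 and PBS 5 (limma adjusted p = 0.123) and -0.10 without PBS 1 and PBS 4 (limma adjusted p = 0.938). The spread over all mice was 42.2% against a counting error of 20.3%. The same pair of PBS mice had the highest summed level of the Langerhans cell markers (4905 and 3938 normalized counts, against 1513 to 2850 in the other mice). Most of that sum came from Cd74, Mfge8, H2-Ab1 and H2-Aa (means of 1120, 577, 457 and 399 normalized counts), beside 20.9 for Cd207. The sum therefore does not measure Langerhans cells alone, and its part in the level of Cldn7 was not tested.

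Cldn3, whose gene lies 39.3 kb from Cldn4 on chromosome 5 (134986214 to 134987472, plus strand), was as rare, with 8 to 24 reads per mouse. PBS mice 1 to 5 had 18.1, 7.77, 15.1, 19.1 and 13.6 normalized counts, and the DT mice ran from 8.06 through a median of 15.2 to 23.5. The groups covered the same range, and the log2 fold change was -0.03 ± 0.30 (SE, limma adjusted p = 0.985), and 0.11 under quantile normalization. An antisense gene with values of its own, Wbscr25, overlaps the Cldn3 exon, and it is not stated whether reads were counted by strand, so the level of Cldn3 is uncertain.

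F11r encodes JAM-A (chromosome 1, 171437535 to 171464603, plus strand). PBS mice 1 to 5 had 3038, 3163, 3665, 2924 and 3337 normalized counts, and the DT mice ran from 3158 through a median of 3251 to 3530, inside the PBS range. The log2 fold change was 0.03 ± 0.057 (SE), or 1.02-fold with a 95% confidence interval from 0.937 to 1.11 (limma adjusted p = 0.900). PBS 3 was the highest mouse and PBS 4 the lowest.

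Tjp1 encodes ZO-1 and was the member with the most reads and the longest exons (chromosome 7, 65296165 to 65527781, minus strand). Normalized counts of PBS mice 1 to 5 were 3685, 3347, 3437, 4228 and 3347, and the DT mice ran from 3269 through a median of 3548 to 3774. PBS 4 stood above all other mice and the rest of both groups intermingled. The log2 fold change was -0.03 ± 0.063 (SE), or 0.980-fold with a 95% confidence interval from 0.894 to 1.08 (limma adjusted p = 0.904).

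Cgn encodes cingulin, which links the junction to the cytoskeleton (chromosome 3, 94760069 to 94786492, minus strand). PBS mice 1 to 5 had 2088, 2024, 1763, 2508 and 1704 normalized counts, and the DT mice ran from 1843 through a median of 2018 to 2138. PBS 4 was the highest and PBS 3 and PBS 5 the lowest of all mice, with the whole DT group between them. The log2 fold change was 0.01 ± 0.082 (SE), with a 95% confidence interval from -0.17 to 0.18 (limma adjusted p = 0.984), and -0.01 under quantile normalization. Tjp1, F11r and Cgn each changed sign when PBS 1 and PBS 4 or PBS 3 and PBS 5 were left out or, for Tjp1, when the length trend was removed, and none was called in any of the 23 alternatives. Without PBS 3 and PBS 5 the log2 fold changes were -0.08 for Tjp1, 0.11 for F11r and -0.13 for Cgn. Without PBS 1 and PBS 4 they were 0.06 for Tjp1, -0.05 for F11r and 0.14 for Cgn.

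**Figure D2:**
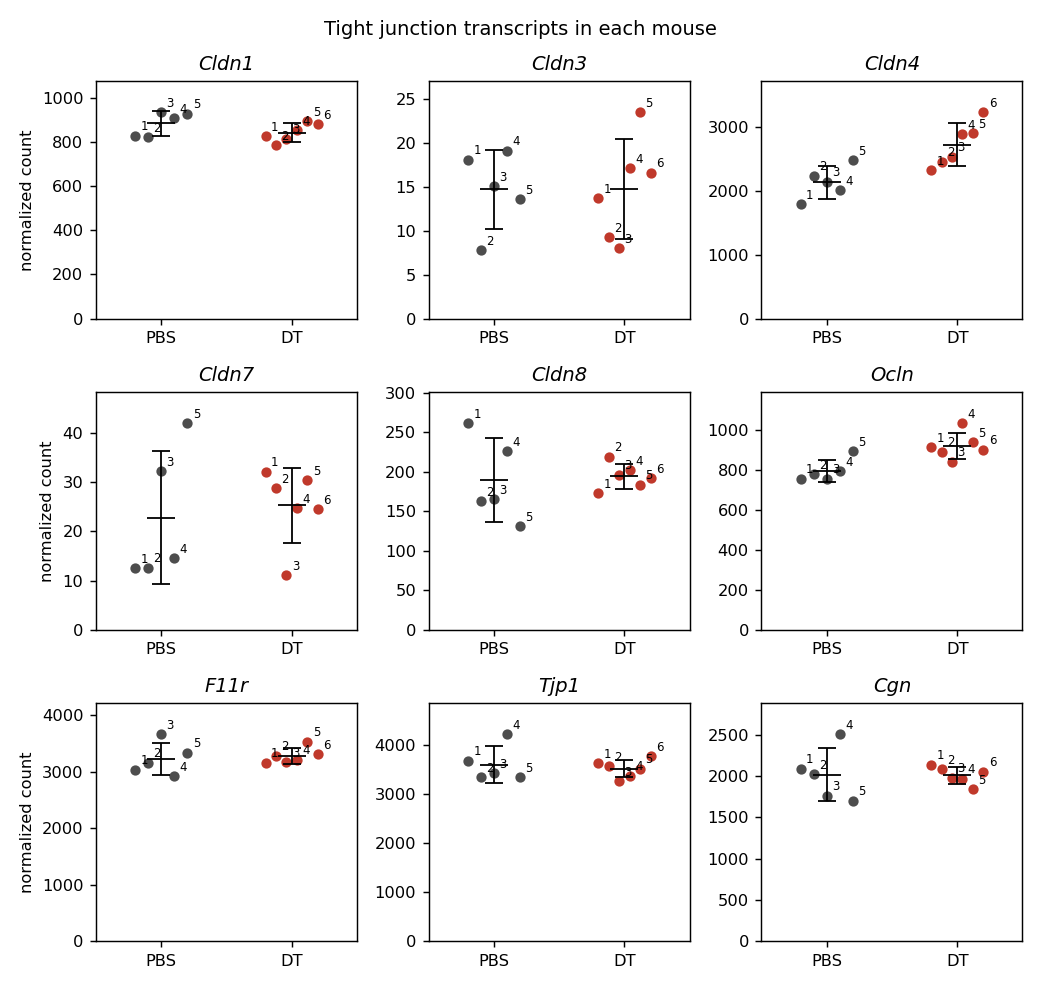
Normalized count of each member in each PBS mouse (grey, n = 5) and DT mouse (red, n = 6), with the mean and SD as black bars and the mouse number beside each point. Cldn4 and Ocln sit higher after DT with overlap at PBS 5, and for Cldn8, F11r and Cgn the DT mice lie within the wider range of the PBS mice.

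For 7 of the 9 members the SD on the log2 scale was larger in the PBS group, and the same held for 69.3% of 13454 genes whose mean reached 10 normalized counts. The ratio of the SDs (PBS over DT) was 3.44 for Cldn8, 2.93 for Cgn, 2.16 for F11r and 1.92 for Tjp1, with a median of 1.34 over those 13454 genes. It was 0.975 for Cldn4 and 0.883 for Cldn3, and the SDs of Ocln were nearly equal.

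All 36 pairs of members were compared across the 11 mice on the log2 scale, both groups together. Cldn4 and Ocln had a Pearson r of 0.79 (permutation p = 0.0038, adjusted over 36 pairs 0.068) and a Spearman rho of 0.80 (permutation p = 0.0046, adjusted 0.084), and r was 0.85 without the 2 mice farthest from the median of Cldn4. Both had a higher mean after DT, and with the group means removed their r was 0.53. F11r and Cgn ran opposite to each other, with r = -0.81 (permutation p = 0.0031, adjusted 0.068), rho = -0.83 (permutation p = 0.0027, adjusted 0.084) and r = -0.61 without PBS 3 and PBS 4. Tjp1 and Cgn, the 2 scaffolds, had r = 0.78 (permutation p = 0.0061, adjusted 0.073), rho = 0.69 (permutation p = 0.021, adjusted 0.26) and r = 0.62 without PBS 4 and DT 3. With the group means removed r was -0.83 for F11r and Cgn and 0.80 for Tjp1 and Cgn. No pair had an adjusted p under 0.05.

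The mice also differed in how long and short transcripts stood to each other, measured as the median log2 deviation of 1852 genes with a transcript of at least 6000 bases minus that of 2977 genes under 2000 bases. It was 0.183 in PBS 1 and 0.311 in PBS 4, between -0.140 and 0.0145 in the other PBS mice and between -0.147 and -0.00474 in the DT mice. Cgn followed it, with r = 0.85 (permutation p = 0.00067, adjusted over 9 members 0.006), rho = 0.81 (permutation p = 0.0038, adjusted 0.034) and r = 0.76 without PBS 1 and PBS 4. For Tjp1 r was 0.79 (permutation p = 0.0067, adjusted 0.021) with rho = 0.54 (permutation p = 0.093, adjusted 0.19), and r fell to 0.34 without PBS 1 and PBS 4, so that the relation rested on them. For F11r r was -0.77 (permutation p = 0.007, adjusted 0.021) with rho = -0.75 (permutation p = 0.011, adjusted 0.052), and r was -0.47 without that pair. For Cldn4 r was -0.62 (permutation p = 0.043, adjusted 0.065) with rho = -0.50 (permutation p = 0.12, adjusted 0.19), and it was -0.10 without the pair, so that this too rested on them. For Cldn7 r was -0.65 (permutation p = 0.027, adjusted 0.057) with rho = -0.65 (permutation p = 0.037, adjusted 0.11), and r was -0.57 without the pair. For Cldn8 r was 0.65 (permutation p = 0.032, adjusted 0.057) with rho = 0.40 (permutation p = 0.22, adjusted 0.29), and r was 0.32 without the pair. Ocln had r = -0.56 (permutation p = 0.072, adjusted 0.093), and Cldn1 and Cldn3 had r of -0.13 and 0.15. These relations were taken over both groups together without removing the group means, so that they can include the difference between the groups. With the length trend removed, the log2 fold change of Cldn4 was 0.35 and that of Ocln 0.23. What makes the mice differ in this way was not tested.

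**Figure D3:**
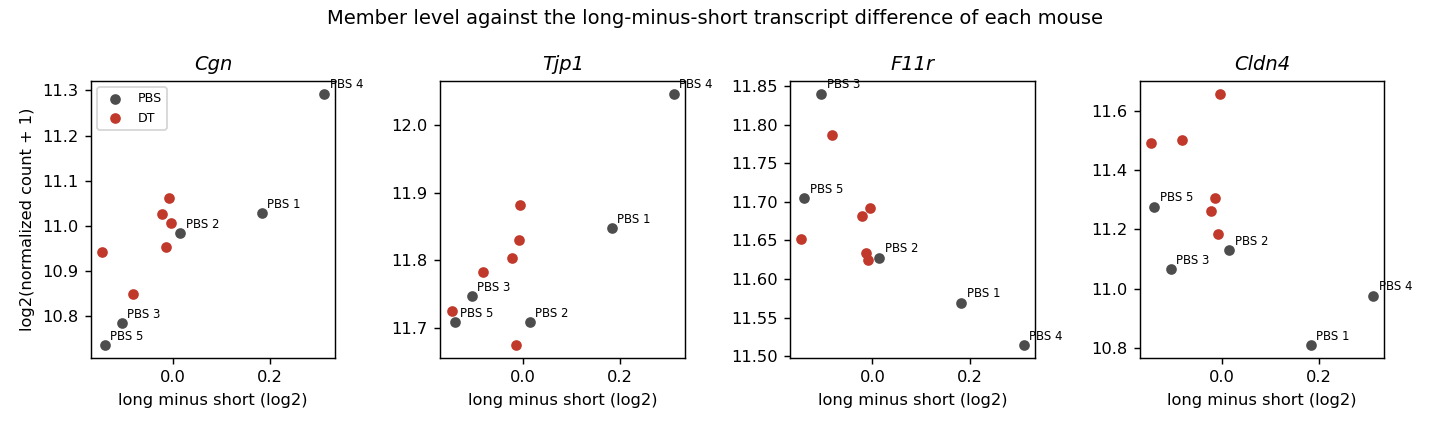
Level of Cgn, Tjp1, F11r and Cldn4 (log2 of normalized count plus 1) against the long-minus-short transcript difference of each mouse (log2), with PBS mice in grey and named and DT mice in red. Cgn is higher and F11r lower towards the right, where PBS 1 (0.183) and PBS 4 (0.311) lie apart from the other mice in each panel.

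By the rule for named genes, the transcripts most like each member across the 11 mice were looked up among genes averaging 50 normalized counts or more, as a description. Cldn4 was closest to Hspb8, Hbegf and Ly6m (r from 0.93 to 0.94) and Ocln to S100a7a and Hspe1 (r = 0.92 for each). Cldn7 was closest to Ifngr1, S100a9 and Klk9 (r from 0.94 to 0.95), and Cldn8 to Tars2, Cep95 and Ints2 (r from 0.90 to 0.92). Tjp1 was closest to Ercc6l2, Ralgapb and Tmem131 (r from 0.92 to 0.96), F11r to Dym, Dazap2 and Nckap1 (r from 0.95 to 0.98) and Cgn to Rfx1, Ppp1r12a and Pikfyve (r from 0.94 to 0.97). Cldn1 (Traf4, Svbp and Chd1l) and Cldn3 (Cadps2, Etfbkmt and Ttc27) had weaker nearest genes, with r from 0.82 to 0.88. Each is among the 3 highest of 11038 genes compared (11039 for Cldn3 and Cldn7), and all libraries of a group share their treatment.

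Beside the 5 member claudins, 8 further genes named as numbered claudins had values, and the 13 were summed per kb to see what the claudin pool consisted of. Cldn4 made up 46.9% ± 2.6 (SD, n = 5) of it after PBS and 52.0% ± 2.6 (SD, n = 6) after DT, with 42.6% in PBS 1 as the lowest and 55.0% in DT 6 as the highest mouse. Cldn17, an anion-channel claudin, made up 22.5% and 20.4%, and Cldn23 made up 15.3% and 14.9%. Cldn1 made up 7.33% ± 0.52 (SD, n = 5) and 6.07% ± 0.40 (SD, n = 6), and every DT mouse lay under the lowest PBS mouse, at 6.73%, with 6.66% in DT 1 as the highest. Cldn8 and Cldn12 made up 3.28% and 3.18% after PBS and 2.88% and 2.51% after DT, and each of the other 7 stayed under 1% in every mouse. The shares of Cldn12 did not overlap between the groups either, at 3.05% to 3.54% after PBS and 2.11% to 2.81% after DT. Shares sum to 100%, so that a larger share of Cldn4 goes with smaller shares of the rest.

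**Figure D4:**
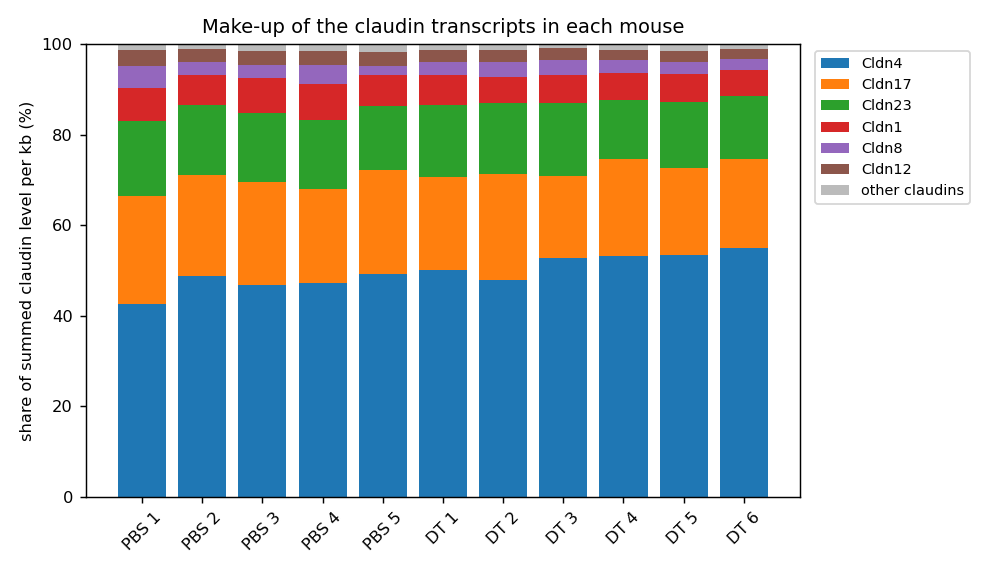
Share of each claudin in the summed claudin level per kb (%) in each mouse, stacked, with the 7 rarest claudins together in grey. Cldn4 takes between 42.6% and 55.0% of each bar, followed by Cldn17 and Cldn23.

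The members were set beside 106 other genes of the junction in 5 lists, of which 83 had values. None of the 83 passed the threshold (limma, adjusted p under 0.1), against 0.558% of all genes, and 18 reached an unadjusted p under 0.05, 9 in each direction. That is 21.7% of them beside 11.5% over the whole table, and their median log2 fold change was 0.01. Among the 9 other claudins and claudin-domain genes with values, 0 were called, and Cldn23 (log2 fold change 0.16), Cldn2 (-0.68), Cldn12 (-0.14) and Cldn19 had an unadjusted p under 0.05. Cldn23 was 658 to 720 normalized counts after PBS and 716 to 833 after DT, with 5 of 6 DT mice above all PBS mice. Cldn2, which forms a pore for cations and water, was 23.1 to 40.9 and 8.02 to 28.7 normalized counts, from as few as 7 reads per mouse. Cldn19 was at 0 in all PBS mice and at most 5.07 normalized counts after DT, so that no fold is given. Cldnd1 and Cldn17, the most abundant of this list per kb beside Cldn23, had log2 fold changes of 0.11 and 0.06.

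Of 10 other membrane proteins of the tight junction with values, 0 were called and 0 had an unadjusted p under 0.05. The most abundant per kb were Lsr, which marks the corners where 3 cells meet, the polarity protein Crb3, and Cxadr, with log2 fold changes of -0.01, -0.04 and -0.04. Lsr and Crb3 were highest in PBS 3 and PBS 5 and lowest in PBS 1 and PBS 4 among the PBS mice. Without PBS 3 and PBS 5 their log2 fold changes were 0.15 and 0.14, and without PBS 1 and PBS 4 they were -0.15 and -0.22, none of them called.

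Of 33 scaffold and polarity genes with values, 0 were called, and 8 had an unadjusted p under 0.05, 4 in each direction. The 4 higher ones were the polarity genes Pard3, Pard6b and Pard6g and the guanine nucleotide exchange factor Arhgef18. Pard3 was 5583 to 5868 normalized counts after PBS and 5955 to 6393 after DT, without overlap, although its log2 fold change was only 0.11 ± 0.041 (SE, limma adjusted p = 0.321). Pard6b and Pard6g, which bind Pard3 in the complex that places the junction, had log2 fold changes of 0.33 and 0.18 (limma adjusted p = 0.242 and 0.252). The 4 lower ones were the guanine nucleotide exchange factors Arhgef2 (-0.28) and Arhgef11 (-0.11), the scaffold Magi2 (-0.64) and Amotl2 (-0.13), all on the log2 scale. Arhgef2, whose product GEF-H1 is held by cingulin, was 223 to 296 normalized counts after PBS and 201 to 234 after DT. Magi2 was 22.6 to 36.0 and 13.1 to 22.6 normalized counts, at 14 to 37 reads per mouse. Its groups met at 22.631 in PBS 1 and 22.567 in DT 5, less than the value of a read apart. Ybx3, a transcription factor that ZO-1 binds, and Afdn, which encodes afadin, were the abundant ones per kb beside Pard6g and had log2 fold changes of 0.10 and -0.01.

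Of 19 regulators of claudins and junctions with values, 0 were called and 5 had an unadjusted p under 0.05. Grhl2, a transcription factor known to activate Cldn4, had 1605, 1404, 1646, 1735 and 1407 normalized counts in PBS mice 1 to 5, and the DT mice ran from 1671 through a median of 1965 to 2110. All 6 DT mice lay above the PBS mean and 5 above the highest PBS mouse, with a log2 fold change of 0.30 ± 0.074 (SE, limma adjusted p = 0.126). Snai2, a repressor of epithelial junction genes that binds E-boxes, had a log2 fold change of 0.36 (limma adjusted p = 0.290), and Klf4, a factor of the skin barrier, 0.16 (limma adjusted p = 0.307). Elf3 had a log2 fold change of -0.39, with PBS 3 and PBS 5 at 556 and 540 normalized counts and all other mice between 225 and 346. Without PBS 3 and PBS 5 it was -0.05 (limma adjusted p = 0.833), and without PBS 1 and PBS 4 it was -0.65 (limma adjusted p = 0.087). Twist1 was at most 3.89 normalized counts in any mouse, and no fold is given. Grhl3, a Grainyhead-type factor and among the most abundant of this list per kb beside Klf4, had a log2 fold change of 0.10.

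Of 12 genes of the adherens junction, the belt just below the tight junction, 0 were called, and Ctnnd1, which encodes p120-catenin, had an unadjusted p under 0.05. It was 1108 to 1388 normalized counts after PBS and 1053 to 1154 after DT (log2 fold change -0.17, limma adjusted p = 0.286). Jup, Ctnnb1 and Cdh1, which encode plakoglobin, beta-catenin and E-cadherin and were the most abundant of this list per kb, had log2 fold changes of 0.07, 0.04 and 0.01.

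**Figure D5:**
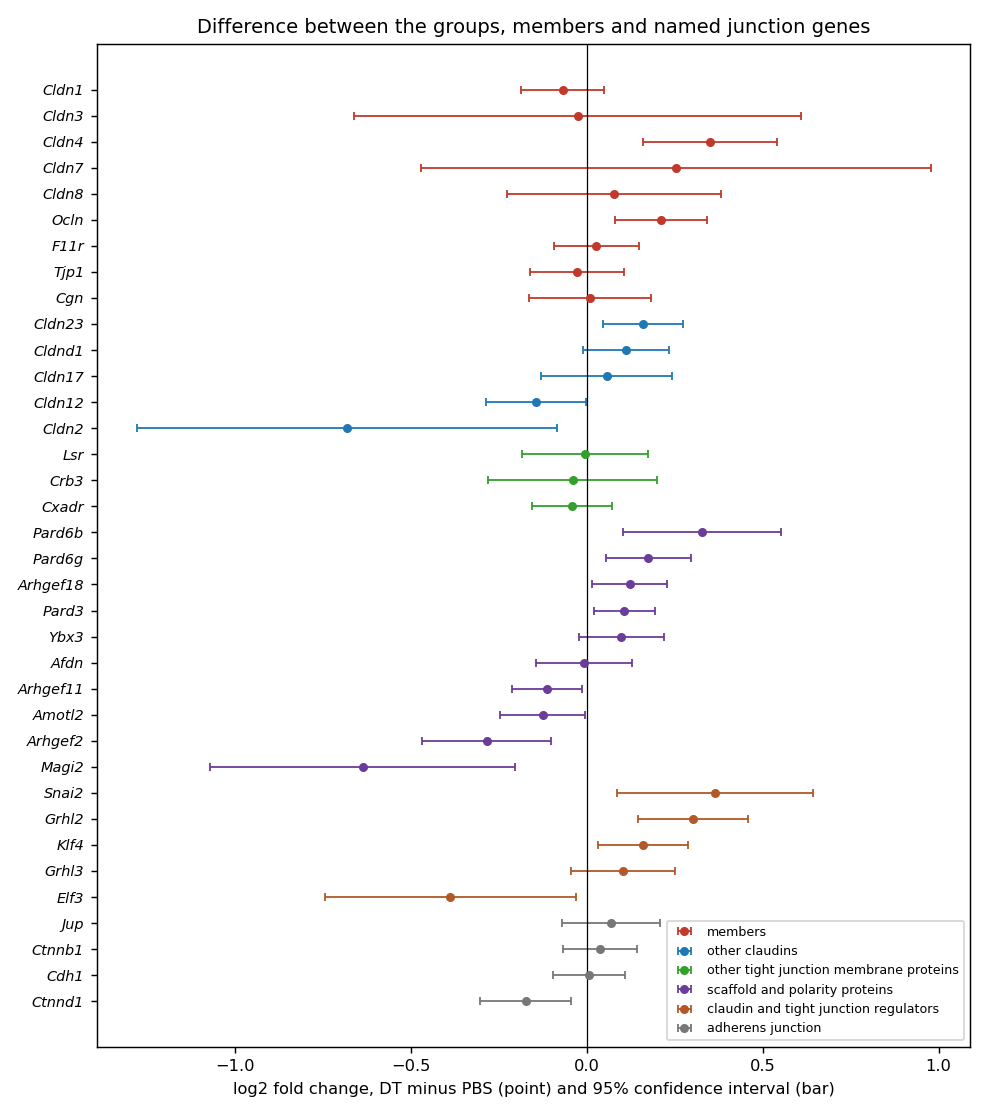
Log2 fold change (DT minus PBS) with its 95% confidence interval from limma for the 9 members and the named genes of the 5 junction lists whose mean reached 10 normalized counts, coloured by list. Of the members, the intervals of Cldn4 (0.16 to 0.54) and Ocln (0.08 to 0.34) lie above 0, and those of Cldn3 and Cldn7 are the widest.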

How the data were processed

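The authors trimmed the reads with cutadapt, aligned them with TopHat and counted them with HTSeq. Counts were then scaled by DESeq2 size factors, and these normalized counts are the values the authors deposited. The genome is GRCm38 in the study's methods and GRCm39 in the labels, and strand use in counting is not given in the sources used here. Genes listed without a value (36244 of 55414) were not tested. Every deposited value was a whole number of reads times a constant of its mouse (within 0.02 reads), and the depth follows from that constant. Precision was taken from the spread between mice.

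Groups came from the labels. Nothing in the labels says more of the replicates than that they are separate samples, so p-values measure the spread between these samples. Differences were tested with limma 3.58.1 (intensity trend, R 4.3.3) on log2(normalized count + 1), a scale that understates the change of low genes, over 19170 genes, with a threshold of 0.1 on the adjusted p and no covariate. Members were also compared by two-sided exact permutation (scipy 1.17.1), and correlations by 100000 permutations. Positions and lengths came from GENCODE mouse release 21 on GRCm38. The members and lists were chosen with earlier results of these data known. Named genes were the members, in each junction list those with an unadjusted p under 0.05 and the 3 highest per kb, and for each member the 3 most similar genes. Among these, 2 genes were left out of the text without replacement. Alternatives tried were pseudocounts of 0.5 and 10, a minimum mean of 10, other scalings, array weights, no trend, replicate blocks, left-out mice and a length correction by loess (span 0.3, degree 1).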

Additional observations from a re-analysis of the deposited data

Results flagged for a closer look

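In 78 groups of values (members and named junction genes in PBS or in DT), a mouse stood apart by Dixon's criterion in 4, which chance gives in about 1 of 20 groups. DT 3 had 11.1 normalized counts of Cldn7, against 24.5 to 32.1 in the other DT mice. PBS 5 had 891 normalized counts of Ocln, against 754 to 790 in the other PBS mice. PBS 4 had 658 normalized counts of Cldn23, against 706 to 720 in the other PBS mice. DT 1 had 5329 normalized counts of Grhl3, against 6331 to 6720 in the other DT mice.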

How the results depend on the processing

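No member was called with other pseudocounts, the low-value filter, TMM scaling, quantile normalization, no trend or the replicate blocks. The count of called members was 1 (Cldn4) with array weights and with the length trend removed, 2 (Cldn4 and Ocln) without PBS 3 and PBS 5, and 0 to 2 when 1 mouse was left out (2 without PBS 5). Of the 83 junction genes 1 was called with array weights, 1 with the length trend removed, 7 without PBS 3 and PBS 5, 5 without PBS 1 and PBS 4, and 0 to 2 when 1 mouse was left out. Over all genes the count of 107 became 189 with array weights, 4 without the trend, 1967 (10.3%) without PBS 3 and PBS 5, 234 without PBS 1 and PBS 4, 154 (120 higher, 34 lower, against 60 and 47) with the length trend removed, and 27 to 259 when 1 mouse was left out, with 27 without DT 5 and 259 without PBS 5. The cause of these shifts was not tested. The left-out pairs and the length correction were chosen after seeing the data. The mean share of Cldn4 among claudins was 49.7% and became 45.8% without division by length, and 49.2% to 50.4% when 1 mouse was left out. In the exact test 2 of 9 members had p under 0.05 under every setting tried. The numbers in the sample titles did not pair the mice (correlations of deviations from -0.23 to 0.32). With them as a replicate block, in which DT 6 has no partner and adds nothing, 35 genes were called. With the library number as a replicate block, in which DT 5 adds nothing, 0 were called in limma (1404 at an unadjusted p under 0.05). The planned tests on recovered reads were not run, since the deposited values were treated as normalized. At 8 to 40 reads per mouse, differences in Cldn3 and Cldn7 of the size seen in Cldn4 were not detectable.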
